A study of Homo sapiens with 9 samples.

Results

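AHNAK, AHNAK2, ANXA2 and S100A10 are 4 of the 20777 genes listed in a count table of LX-2 cells, a human hepatic stellate cell line. They were chosen by gene symbol, as a protein complex with a close relative, with earlier results of these data known, in particular the value of AHNAK2 in the comparison of uridine with TGF-β alone. For that comparison their values are given as a description with no test. All 4 passed the filter on low counts, as did 13384 genes in all.

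AHNAK and AHNAK2 are very large scaffold proteins built mostly from repeated units, and AHNAK can lie beneath the plasma membrane. Its C-terminal tail binds a complex in which a dimer of S100A10 bridges a pair of annexin A2 (ANXA2) molecules. ANXA2 is a calcium-dependent phospholipid-binding protein, and S100A10, also called p11, is an S100 protein that no longer binds calcium. The complex links the membrane to actin, takes part in membrane repair with dysferlin, and on the cell surface can bind plasminogen and tissue plasminogen activator. Hepatic stellate cells become matrix-producing myofibroblasts under TGF-β.

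Bulk RNA-seq was carried out on 9 libraries of LX-2 cells labelled as wild type and grown in DMEM with 10% serum, 3 per group. The control group received neither agent, the TGF-β group received TGF-β, and the TGF-β + uridine group received TGF-β and the nucleoside uridine. The labels place both treatments on day 1, and the methods of the study give 12 h of TGF-β at 25 ng/ml, followed by new medium that held uridine. A dose of uridine is not stated for the sequenced libraries in the sources used here. No label says that the libraries came from separate cultures, so the p-values measure only the spread between these libraries, which may be technical.

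The genes differ in build, and the sequence of the repeats is shown because reads from a repeated stretch can be placed at more than 1 position within the same gene. On the GRCh38 annotation all 4 genes lie on the minus strand. AHNAK (ENSG00000124942) spans chr11:62433542-62556235, and 1 exon of 18170 nt holds nearly all of its longest coding transcript of 18787 nt. AHNAK2 (ENSG00000185567) spans chr14:104937244-104978357, and 1 exon of 17483 nt holds nearly all of a transcript of 18254 nt. The best match of each sequence to itself lay at an offset of 384 nt in AHNAK and 495 nt in AHNAK2, where 51.1% and 66.5% of bases were identical. The lines below give 3 successive copies of a 90-nt stretch from the long exon of each gene, on the coding strand at that offset, with capitals at bases that differ from the first copy. The stretch was picked for the fewest differences from its first copy, with no identical copies, and does not give the typical likeness of the repeats.
AHNAK copy 1, chr11:62522228-62522317: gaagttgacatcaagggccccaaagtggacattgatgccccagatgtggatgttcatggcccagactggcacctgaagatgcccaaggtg
AHNAK copy 2, chr11:62521844-62521933: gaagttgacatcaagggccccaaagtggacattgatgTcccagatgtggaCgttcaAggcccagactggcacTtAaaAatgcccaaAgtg
AHNAK copy 3, chr11:62521460-62521549: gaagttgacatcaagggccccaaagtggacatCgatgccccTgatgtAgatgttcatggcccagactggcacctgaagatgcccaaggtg
AHNAK2 copy 1, chr14:104946496-104946585: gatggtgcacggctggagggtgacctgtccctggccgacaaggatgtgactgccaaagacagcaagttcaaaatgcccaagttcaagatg
AHNAK2 copy 2, chr14:104946001-104946090: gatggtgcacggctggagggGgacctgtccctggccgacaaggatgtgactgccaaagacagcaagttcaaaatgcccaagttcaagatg
AHNAK2 copy 3, chr14:104945506-104945595: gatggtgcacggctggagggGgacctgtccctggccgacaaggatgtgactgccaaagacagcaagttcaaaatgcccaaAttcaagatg

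Copies 2 and 3 differed from the first at 7 and 3 bases in AHNAK and at 1 and 2 bases in AHNAK2. Identical repeats were counted separately over the whole transcripts: 510 of 18713 windows of 75 nt (2.73%) in AHNAK and 745 of 18180 (4.10%) in AHNAK2 occurred more than once. No such window was shared between AHNAK and AHNAK2, so exact 75-nt matches separate them.

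ANXA2 (ENSG00000182718, chr15:60347134-60402883) has a longest coding transcript of 1676 nt in 14 exons, and S100A10 (ENSG00000197747, chr1:151982915-151994390) one of 1202 nt in 3 exons. Of the 1602 windows of 75 nt in the ANXA2 transcript, 415 (25.9%) also occur in the processed pseudogene ANXA2P2, 21 in ANXA2P1 and 0 in ANXA2P3. Counts of ANXA2 may therefore have lost or gained reads to ANXA2P2. The 3 pseudogenes are not listed by symbol among the 20777 genes, so their reads could not be compared with those of ANXA2. Parts of AHNAK, AHNAK2 and ANXA2 overlap genes on the opposite strand, and since the strand setting of the counting is not given in the sources used here, reads of such partners cannot be told apart from theirs.

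Total counts ranged from 40539751 to 41467124 per library. Libraries differed more in composition than in depth: the slope of log2 CPM, counts scaled to 1e6 reads, on the GC content of genes was 5.65, -0.73 and -4.10 log2 units per unit GC fraction in control replicates 1, 2 and 3. The slopes of the TGF-β group lay from -0.32 to 0.54, those of the TGF-β + uridine group from -2.69 to 2.28. Control replicates 1 and 3 stood apart from the rest at opposite ends, and log2 differences against control that depend on them are given without each. Among the defining stellate markers, COL1A2 and RELN had at most 1 read in any library, while COL1A1 and VIM were present. The summed FPKM (fragments scaled to library size and gene length) of the 12 listed stellate and myofibroblast markers was 714 to 810 in control, 1172 to 1192 in TGF-β and 1073 to 1089 in TGF-β + uridine libraries. That of 7 biliary and epithelial markers, led by KRT8 and KRT18, was 4290 to 6091, 5271 to 5430 and 4350 to 4947. Sums of leukocyte (17.0 to 22.8), hepatocyte (at most 0.29) and endothelial markers (at most 0.48) were far lower. The part of these markers in the values of the 4 genes was not tested. In bulk RNA, fewer cells of a type and less RNA per cell cannot be told apart.

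Per length, the genes of the annexin complex were far more abundant than the scaffolds. Mean FPKM over the 9 libraries was 854 for S100A10 (rank 93 of 20777 listed genes), 201 for ANXA2 (rank 341), 22.3 for AHNAK2 (rank 2373) and 16.8 for AHNAK (rank 2850). By FPKM, S100A10 exceeded ANXA2, and ANXA2 exceeded both scaffolds, in every library. The order of the scaffolds was not fixed: AHNAK lay above AHNAK2 in control replicates 2 and 3 and below it in the other 7 libraries. These levels use the gene lengths implied by the deposited values, which were 19391 nt for AHNAK, 18589 nt for AHNAK2, 5266 nt for ANXA2 and 671 nt for S100A10. For ANXA2 that length is above its longest coding transcript and for S100A10 below it. Both the gap and the order of ANXA2 and S100A10 in FPKM therefore depend on the length chosen. In reads the order was the reverse in every library, with 30667 to 49482 for ANXA2 and 16967 to 27845 for S100A10.

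**Figure D1:**
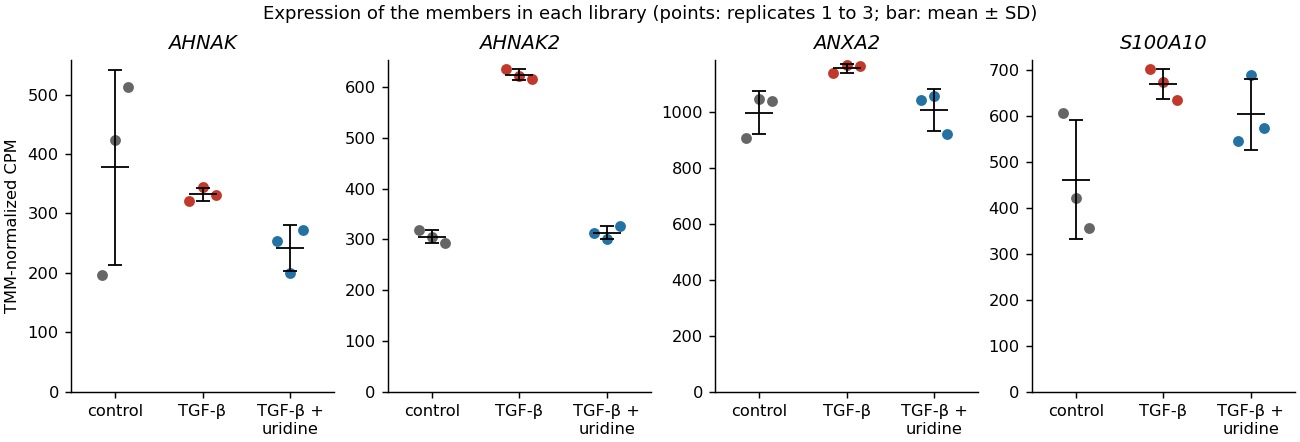
TMM-normalized CPM (y axis from 0) of each gene in the control, TGF-β and TGF-β + uridine libraries, with points in the order of replicates 1 to 3 and bars for the mean ± SD (n = 3). The AHNAK2 libraries of the TGF-β group lie between 616 and 636 CPM, above all others at 292 to 326 CPM, while the control libraries of AHNAK run from 196 to 514 CPM.

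AHNAK2 was the only member called higher with TGF-β by edgeR with condition only, at an adjusted p under 0.05. Its CPM, normalized by the TMM method, was 319, 305 and 292 in control replicates 1 to 3. In the TGF-β libraries it was 636, 621 and 616, and in the TGF-β + uridine libraries 312, 301 and 326. The TGF-β libraries were all above the other 6, whose ranges overlapped. The group means were 305 ± 13.4 CPM in control, 624 ± 10.6 in TGF-β and 313 ± 12.9 in TGF-β + uridine (SD, n = 3 each), and the reads behind them numbered 10763 to 25663 per library.

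With TGF-β, AHNAK2 was 2.05-fold higher than in control, a log2 fold change of 1.03 (SE 0.09, 95% confidence interval 0.84 to 1.23, adjusted p = 2.6e-04, edgeR quasi-likelihood test). It ranked 465 from the top among 13384 log2 fold changes. An exact two-sided permutation test of the CPM gave p = 0.1, the smallest that 3 libraries against 3 allow. It was called in all 12 other settings tried and in each of 9 fits that left out 1 library, with log2 fold changes of 0.98 to 1.06. The TGF-β libraries used here also entered the comparison by which the member was chosen.

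With TGF-β and uridine, AHNAK2 stood at the control level within its error, with a log2 difference of 0.04 from control (SE 0.08, 95% confidence interval -0.16 to 0.23, adjusted p = 0.933, edgeR). The TGF-β + uridine libraries also entered the comparison by which the member was chosen. As a description, its log2 difference between TGF-β + uridine and TGF-β was -0.996 (SE 0.09), or 0.501 of the TGF-β level, which ranked 187 from the lowest among 13384 genes.

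AHNAK, the founding scaffold, showed no called change, and its control libraries spread widely. Its CPM was 196, 423 and 514 in control replicates 1 to 3, a range of 2.62-fold. The TGF-β libraries had 321, 344 and 331 CPM and lay inside the control range. The TGF-β + uridine libraries had 254, 199 and 273 CPM, all below the TGF-β libraries but also within the range of control. The means were 378 ± 164, 332 ± 11.6 and 242 ± 38.1 CPM (SD, n = 3 each).

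AHNAK in TGF-β differed from control by a log2 value of -0.19 (SE 0.29, 95% confidence interval -0.85 to 0.48, adjusted p = 0.975, edgeR, exact permutation p = 0.7). The interval does not reach the size of the AHNAK2 change, 1.03. In TGF-β + uridine the log2 difference from control was -0.64 (SE 0.30, 95% confidence interval -1.31 to 0.03, adjusted p = 0.309, edgeR, exact permutation p = 0.4). Without control replicate 1 it became -0.97 with an adjusted p of 0.0015, whereas without control replicate 3 it was -0.36 and was not called. The TGF-β value also depended on those libraries, with -0.50 without control replicate 1 and 0.10 without control replicate 3, neither of them called. As a description, the log2 difference between TGF-β + uridine and TGF-β was -0.46 (SE 0.30).

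ANXA2, the annexin of the complex, differed little between groups. Its CPM was 908, 1045 and 1038 in control, 1139, 1168 and 1163 in TGF-β, and 1044, 1057 and 922 in TGF-β + uridine replicates 1 to 3. Every TGF-β library was above every control library, by little. The means were 997 ± 76.9, 1157 ± 15.7 and 1008 ± 74.5 CPM (SD, n = 3 each).

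The log2 difference of ANXA2 between TGF-β and control was 0.21 (SE 0.10, 95% confidence interval -0.02 to 0.45, adjusted p = 0.483, edgeR, exact permutation p = 0.1) and was not called. For TGF-β + uridine against control it was 0.02 (SE 0.10, 95% confidence interval -0.22 to 0.25, adjusted p = 0.983, edgeR, exact permutation p = 0.6). Between TGF-β + uridine and TGF-β it was -0.20 (SE 0.10), given as a description. The upper bound of 0.45 for TGF-β excludes a change as large as that of AHNAK2.

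S100A10, the partner that bridges the annexins, was higher in every TGF-β library than in any control library, but the call depended on the fit. Its CPM was 606, 420 and 356 in control replicates 1 to 3. In TGF-β it was 700, 673 and 635, and in TGF-β + uridine 545, 689 and 573. The TGF-β + uridine libraries overlapped both other groups. The means were 460 ± 130, 669 ± 32.9 and 602 ± 76.4 CPM (SD, n = 3 each).

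For S100A10 the log2 difference between TGF-β and control was 0.54 (SE 0.19, 95% confidence interval 0.11 to 0.97), with an unadjusted p of 0.0190 that did not pass adjustment (adjusted p = 0.227, edgeR, exact permutation p = 0.1). Without control replicate 1 it was 0.78 with an adjusted p of 0.0036, whereas without control replicate 3 it was 0.38 with an adjusted p of 0.325. With limma on log2(FPKM + 1) it was 0.57 with an adjusted p of 0.0032. For TGF-β + uridine against control it was 0.39 (SE 0.19, 95% confidence interval -0.04 to 0.81, adjusted p = 0.342, edgeR, exact permutation p = 0.3), with 0.62 and an adjusted p of 0.0094 without control replicate 1, and 0.23 and an adjusted p of 0.469 without control replicate 3. Without TGF-β + uridine replicate 1 or 2 it was 0.45 or 0.28 and was not called. The log2 difference between TGF-β + uridine and TGF-β was -0.15 (SE 0.19), given as a description.

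Counted together, 1 of the 4 members was called in TGF-β against control by edgeR at an adjusted p under 0.05, where the background was 3.38% of 13384 tested genes. In TGF-β + uridine against control 0 of 4 were called by edgeR, against a background of 5.33%. There 0 of 4 had an unadjusted p under 0.05, DESeq2 called 0 and limma called 1. Across all genes 0.0448% were called in TGF-β + uridine against TGF-β, from which nothing is read for members chosen on that comparison. By overlap of the CPM values, 3 of 4 members were higher in every TGF-β than in any control library, where 9.72% of tested genes were. In TGF-β + uridine, 3 of 4 were lower than in any TGF-β library, where 12.8% of tested genes were, and the choice of members used this comparison. None of the 4 separated TGF-β + uridine from control, where 19.7% of tested genes did in either direction.

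**Figure D2:**
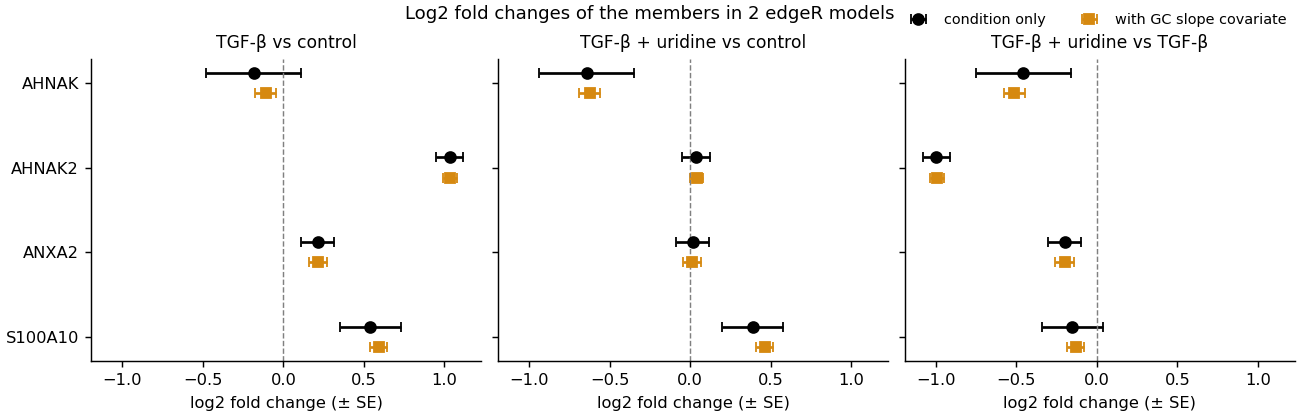
Log2 fold changes (x axis, bars ± SE) of the 4 genes in TGF-β against control, TGF-β + uridine against control and TGF-β + uridine against TGF-β, fitted by edgeR with condition only (black circles) or with the GC slope of each library as a covariate (orange squares). The AHNAK2 value in TGF-β against control is 1.03 in both fits, while the SE of AHNAK falls from 0.29 to 0.066.

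The spread of AHNAK and S100A10 among the control libraries moved with the GC slope of the libraries, in opposite directions. AHNAK was lowest in control replicate 1, the library of slope 5.65, and highest in control replicate 3, of slope -4.10, and S100A10 had the reverse order. In the TGF-β + uridine group replicate 2 had the highest slope, 2.28, and there AHNAK was lowest and S100A10 highest. AHNAK changed by -0.14 and S100A10 by 0.075 on the log2 scale per unit of slope, against 0.0055 for AHNAK2 and -0.0095 for ANXA2. The GC content of the longest transcript was 49.3% for AHNAK, 56.2% for S100A10, 58.3% for AHNAK2 and 44.0% for ANXA2. Its median over tested genes was 49.3%. The changes per unit of slope thus did not follow the GC content of these 4 genes, and their cause was not tested. The coefficient of variation among the control libraries was 43.3% for AHNAK and 28.2% for S100A10, beside 7.72% for ANXA2 and 4.37% for AHNAK2. The median over all tested genes was 29.7%, and 3.70% of genes had a lower control value than AHNAK2.

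With the GC slope as a covariate, all 4 log2 fold changes in TGF-β against control kept their sign and the errors shrank. AHNAK2 was at 1.03 (SE 0.043, adjusted p = 1.9e-09), S100A10 at 0.59 (SE 0.054, adjusted p = 3.3e-06) and ANXA2 at 0.21 (SE 0.057, adjusted p = 0.0172), while AHNAK was not called at -0.11 (SE 0.066, adjusted p = 0.288, all edgeR). That made 3 of 4 members called, where the covariate raised the background from 3.38% to 20.3% of tested genes. In TGF-β + uridine against control, AHNAK differed by a log2 value of -0.62 (SE 0.066, adjusted p = 1.3e-05) and S100A10 by 0.46 (SE 0.054, adjusted p = 2.8e-05), against a background of 31.1%. AHNAK2 (0.04, adjusted p = 0.514) and ANXA2 (0.01, adjusted p = 0.898) were not called there. The slope was estimated from the same libraries and the covariate left 5 residual degrees of freedom in place of 6.

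**Figure D3:**
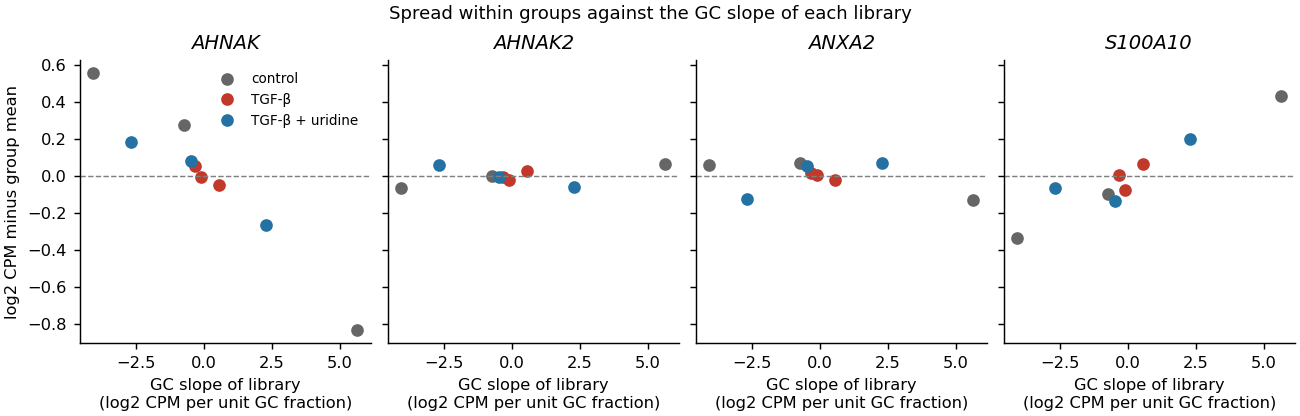
Log2 CPM of each gene minus its group mean (y axis) against the GC slope of the library (x axis, log2 CPM per unit GC fraction) in 9 libraries coloured by group. The AHNAK points fall and the S100A10 points rise from control replicate 3 at a slope of -4.10 to control replicate 1 at 5.65, and those of AHNAK2 and ANXA2 stay near 0.

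Ratios within a library compare the genes of the complex with each other. The FPKM ratio of AHNAK to AHNAK2 was 0.589, 1.33 and 1.69 in control replicates 1 to 3. It was 0.484, 0.531 and 0.516 in TGF-β and 0.779, 0.635 and 0.801 in TGF-β + uridine. Each TGF-β ratio was below each control ratio, though control replicate 1 came close. The log2 ratio differed by -1.11 between TGF-β and control (exact two-sided permutation p = 0.1, the smallest possible with 3 against 3) and by -0.58 between TGF-β + uridine and control (exact permutation p = 0.4). Without control replicate 1 these differences were -1.55 and -1.03, and without control replicate 3 they were -0.80 and -0.27. AHNAK2 is part of this ratio, and both treated groups entered the comparison by which it was chosen. The differences in the ratio are therefore not independent of that choice.

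The FPKM ratio of ANXA2 to S100A10, the pair that forms the tetramer, was 0.191, 0.317 and 0.372 in control. It was 0.207, 0.221 and 0.233 in TGF-β and 0.244, 0.195 and 0.205 in TGF-β + uridine. The control ratios spanned those of both treated groups. The log2 ratio differed from control by -0.36 with TGF-β and by -0.40 with TGF-β + uridine (exact permutation p = 0.4 for both). Without control replicate 1 these were -0.64 and -0.68, and without control replicate 3 they were -0.16 and -0.20. With 3 libraries against 3 this test cannot give a p under 0.1, so it cannot settle whether the balance of the pair differed. With the GC slope as a covariate, the log2 differences from control with TGF-β were 0.59 (SE 0.054) for S100A10 and 0.21 (SE 0.057) for ANXA2. With TGF-β + uridine they were 0.46 (SE 0.054) and 0.01 (SE 0.057). The gap between the 2 genes was not tested in that fit.

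**Figure D4:**
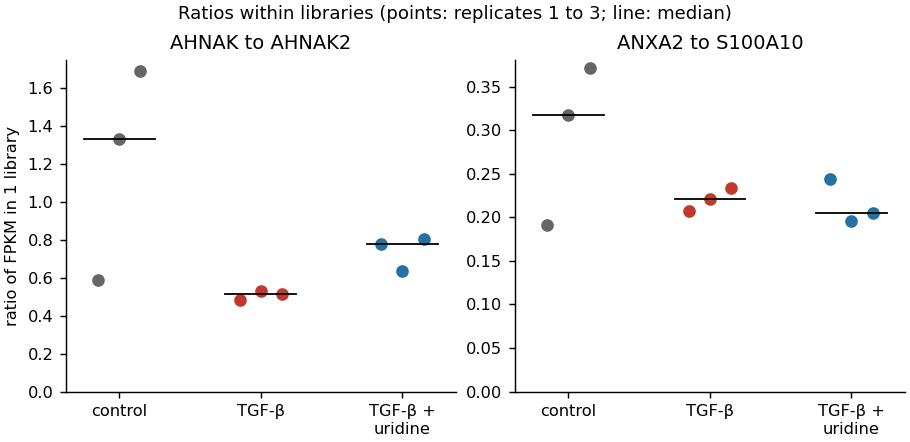
FPKM ratio of AHNAK to AHNAK2 (left) and of ANXA2 to S100A10 (right) within each library, y axis from 0, with points in the order of replicates 1 to 3 and a line at the group median. The AHNAK to AHNAK2 ratio is 0.484 to 0.531 in TGF-β and 0.589 to 1.69 in control, while the control values of the ANXA2 to S100A10 ratio, 0.191 to 0.372, span both treated groups.

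Among relatives of ANXA2, 3 of 11 other annexins tested rose with TGF-β and 0 fell, with a median log2 fold change of 0.12, beside -0.05 over all tested genes and 2.42% of genes called higher. ANXA8 rose by a log2 value of 1.08 (SE 0.11, adjusted p = 0.0010, edgeR) and ANXA8L1 by 0.99 (SE 0.12, adjusted p = 0.0027, edgeR). These genes are near-identical copies, so the split of reads between them is uncertain. ANXA5, which binds phosphatidylserine, rose by 0.44 (SE 0.09, adjusted p = 0.0308, edgeR), from 204 to 220 CPM in control to 287 to 295 CPM in TGF-β, but the call was lost in 6 of 9 fits without 1 library, with an adjusted p of up to 0.169 without TGF-β replicate 1. ANXA6, the other most abundant annexin of the list by FPKM, differed by -0.07 and was not called. With the GC slope as a covariate, 4 of the 11 were called higher with TGF-β and 1 lower, where that fit called 20.3% of all tested genes. In TGF-β + uridine against control 1 of the 11 was called, beside 5.33% of all tested genes called in either direction. It was ANXA8 at 0.63 (adjusted p = 0.0134, edgeR), and without control replicate 2 or TGF-β + uridine replicate 2 its adjusted p was 0.0629 or 0.0585. ANXA5 at 0.35 (adjusted p = 0.0566, edgeR) and ANXA8L1 at 0.45 (adjusted p = 0.0803, edgeR) lay just over the threshold. Upper-quartile normalization called 3 of the 11 higher, and a fit of only the 2 groups compared called 0. The GC slope covariate gave 4 higher and 4 lower, where it called 31.1% of all tested genes.

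Of the S100 relatives of S100A10, 17 of 19 were listed and 11 tested. Of these 1 rose with TGF-β and 0 fell (median log2 fold change 0.21), beside 2.42% of all tested genes called higher. Without control replicate 1 the count was 6 of 12, in a fit that called 1085 genes over all in place of 453. With the GC slope as a covariate, 7 of 11 were called higher and 1 lower, where that fit called 20.3% of all tested genes. S100A2 was the gene called in the fit of all 9 libraries, at 8.93 to 15.0 CPM in control, 29.03 to 31.4 in TGF-β and 23.6 to 30.7 in TGF-β + uridine. Its log2 fold change was 1.42 with TGF-β (SE 0.20, adjusted p = 0.0052, edgeR) and 1.23 with TGF-β + uridine against control (adjusted p = 0.0091, edgeR, or 0.0576 without control replicate 2). The most abundant members by FPKM, S100A11 (0.35) and S100A4 (-0.08), were not called with TGF-β.

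The plasminogen system, which the complex can bind at the cell surface, had 4 of 7 tested genes, of 9 in the list, called higher with TGF-β and 0 lower, beside 2.42% of all tested genes called higher. Their median log2 fold change was 0.80, and 3 of the 7 were not called. PLAU, which encodes urokinase, rose by 2.28 (SE 0.13), SERPINE2, a serine protease inhibitor, by 1.60 (SE 0.10) and PLAT, the tissue plasminogen activator, by 0.86 (SE 0.14). PLAUR, the urokinase receptor (0.80), was named after its value was seen. Without control replicate 2 the count was 2 of 7, as PLAT and PLAUR were not called (adjusted p = 0.0542 and 0.0673). ENO1 (-0.06), another plasminogen-binding protein, and CTSB (0.16), a lysosomal protease, were the most abundant of the list and were not called.

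In TGF-β + uridine against control the same count, 4 of 7, was called higher in the plasminogen list, beside 5.33% of all tested genes called in either direction. Against TGF-β alone, 1 of the 7 was called, beside 0.0448% of all tested genes in either direction. PLAU, lower, differed by a log2 value of -1.18 (SE 0.12, adjusted p = 0.0207, edgeR). Its CPM was 6.69 to 7.40 in control, 33.3 to 34.9 in TGF-β and 13.4 to 16.2 in TGF-β + uridine, with no overlap between any of the groups. PLAU was called there in 11 of 12 other settings but in few of the fits that left out 1 library. Of these, 2 of 9 called it, those without control replicate 1 or 3, and the adjusted p reached 0.259 in the others. The gene lists were chosen with earlier results of these data known, so nothing is read from the shares of a list that were called.

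Other partners of the complex were not called with TGF-β by edgeR. Of 8 tested ligands of S100A10 or ANXA2 0 passed (median log2 fold change -0.05, 1 at an unadjusted p under 0.05, DESeq2 0, limma 0), CLTA, a clathrin light chain, and SPTBN1, a spectrin, being the most abundant. Of 20 tested genes of membrane repair and the ferlin complex 0 passed (median 0.02, 1 at an unadjusted p under 0.05, DESeq2 0, limma 1). Their most abundant members, CAVIN1 of caveolae and the calpain subunit CAPNS1, had log2 fold changes of 0.07 and 0.06 with TGF-β, and DYSF, which encodes dysferlin and was named after its value was seen, -0.08. Of 6 tested genes for the PDZ relative and signalling partners of AHNAK 0 passed (median 0.08, 0 at an unadjusted p under 0.05, DESeq2 0, limma 0), with ACTN4 at 0.15 and PPP2R1A at 0.06. With the GC slope as a covariate, 2, 6 and 1 genes of these lists were called with TGF-β, in a fit that called 20.3% of all tested genes.

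**Figure D5:**
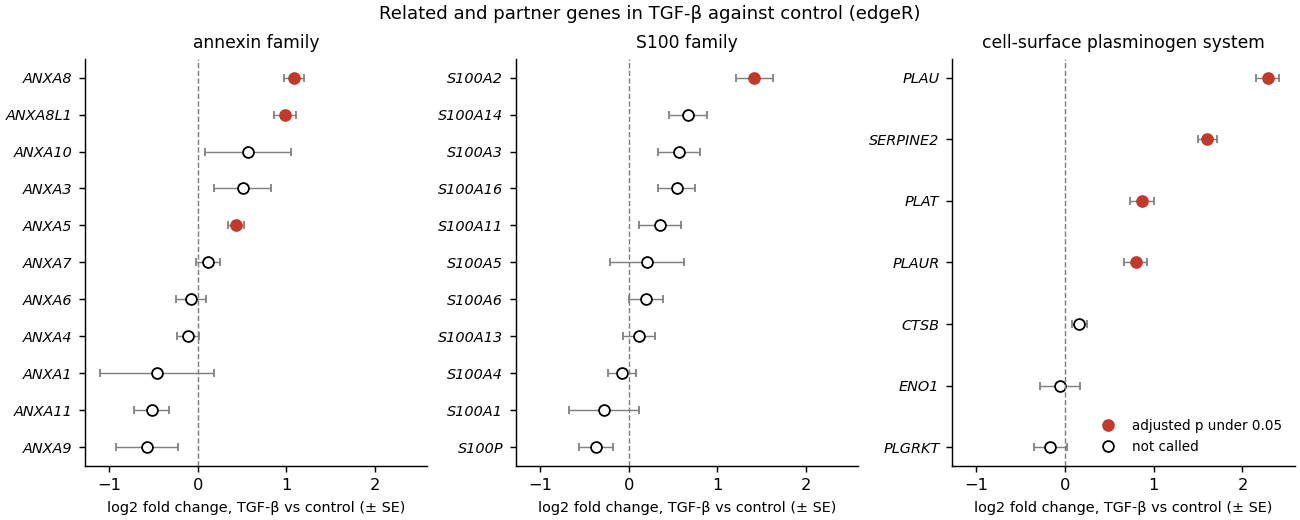
Log2 fold changes (x axis, bars ± SE) in TGF-β against control for the tested annexins, S100 proteins and plasminogen system genes other than the 4 members, filled where the edgeR adjusted p was under 0.05. Filled points are 3 of 11 annexins, 1 of 11 S100 genes and 4 of 7 plasminogen genes, with PLAU at 2.28 the farthest to the right.

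Patterns over the 9 libraries were compared by the root mean square (RMS) difference of log2 CPM, each gene centred on its own mean, so the libraries that chose AHNAK2 entered too. The 5 genes nearest to AHNAK2 were FOXN1 (RMS difference 0.200), LOC107987251, SPAAR, HMOX1 and RNF217 (0.219), where the median over all tested genes was 0.585. HMOX1, which encodes heme oxygenase 1, had 44.8 to 84.6 CPM in control, 108 to 114 in TGF-β and 60.9 to 68.1 in TGF-β + uridine. FOXN1 (23 to 81 reads per library), LOC107987251 (10 to 32) and SPAAR (52 to 121) rest on few reads. Among the other members S100A10 was the 352nd nearest to AHNAK2 (RMS difference 0.392), ANXA2 the 387th (0.397) and AHNAK the 6960th (0.594) of the tested genes. A gene with the same value in all 9 libraries would lie at 0.480, the RMS of AHNAK2 about its own mean. That of ANXA2 was only 0.124, so its rank does not show a shared pattern.

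The 5 genes nearest to AHNAK were HMGB2 (RMS difference 0.091), PTP4A1, TFDP2, WDR26 and ZCRB1 (0.105), where the median was 0.569. Each spread widely among the control libraries, as in PTP4A1, a tyrosine phosphatase with 117 to 372 CPM in control, 203 to 240 in TGF-β and 144 to 193 in TGF-β + uridine. S100A16, which lies in the S100 gene cluster, was nearest to S100A10 (0.058) and was named after its value was seen.

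Promoter sequence was read for the 4 genes from RefSeq (GRCh38.p14), 250 bases before to 50 after the start site, and 5 motifs were searched on both strands: AP-1 (TGACTCA), SMAD (CAGAC), TEAD (GGAATG), a CRE half-site (TGACG) and SP1 (GGGCGG). These occur at least once in 4.95%, 45.3%, 14.03%, 24.6% and 45.0% of 35116 promoter windows. The windows of AHNAK2 and ANXA2 are shown because AHNAK2 is the member called with TGF-β by edgeR with condition only and ANXA2 holds the rarest of the motifs. Capitals mark matches.
AHNAK2 (first start site), minus strand, chr14:104978325-104978624: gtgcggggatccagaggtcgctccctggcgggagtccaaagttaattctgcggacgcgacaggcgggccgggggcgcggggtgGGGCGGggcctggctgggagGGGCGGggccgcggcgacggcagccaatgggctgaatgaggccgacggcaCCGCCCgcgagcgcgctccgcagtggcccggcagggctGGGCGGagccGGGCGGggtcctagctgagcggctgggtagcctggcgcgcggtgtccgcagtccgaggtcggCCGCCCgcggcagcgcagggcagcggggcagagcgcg
ANXA2, minus strand, chr15:60397937-60398236: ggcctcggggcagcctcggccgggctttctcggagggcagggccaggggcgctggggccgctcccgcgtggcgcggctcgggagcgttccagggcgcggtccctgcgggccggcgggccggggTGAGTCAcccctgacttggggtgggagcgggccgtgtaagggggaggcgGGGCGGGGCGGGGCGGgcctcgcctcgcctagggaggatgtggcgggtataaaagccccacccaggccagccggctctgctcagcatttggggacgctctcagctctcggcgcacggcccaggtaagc

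The first AHNAK2 window held 6 SP1 matches and none of the other 4 motifs, and a second start site of the gene held 2 SMAD matches and 1 SP1 match. ANXA2 held 1 AP-1 match and 3 SP1 matches that follow each other. AHNAK held 4 SP1 matches and 1 TEAD match, and S100A10 held 1 SMAD and 1 SP1 match. A match is a stretch of letters and not a binding site, and which start sites these cells used was not measured.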

How the data were processed

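Total RNA of 9 LX-2 libraries was sequenced by a provider. The authors deposited raw counts per gene symbol and FPKM, each with 1 column per library and no pooling. The submitters' processing notes name fastp, HISAT2, HTSeq, R 3.2.0 and GRCh38.p13 with no role or order, and the annotation release and strand setting are not given in the sources used here. For the 4 members, the deposited FPKM implied the same length in every library.

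Counts were filtered (filterByExpr), normalized by TMM and tested with edgeR 4.0.16 quasi-likelihood models of condition on all 9 libraries, with Benjamini-Hochberg adjustment over 13384 genes and a threshold of 0.05. The common biological coefficient of variation was 0.289. Single values were compared by exact two-sided permutation tests. The GC slope of a library used the 12319 genes (92.0% of those tested) whose GC content GENCODE v29 gives. limma 3.58.1 on log2(FPKM + 1) and DESeq2 1.42.0 were alternatives. The edgeR script was tested on simulated data. Gene models and repeats were read from GENCODE v29 transcripts, and promoters from RefSeq, in which all 4 genes matched.

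The members and gene lists were chosen with earlier results of these data known. 1 gene of the plasminogen list is not reported here and was left out of its counts. Besides the members, genes were named by a rule: in each list, up to 3 called genes per direction in TGF-β against control or in TGF-β + uridine against TGF-β, the 2 most abundant by FPKM, and the 5 genes nearest to AHNAK and to AHNAK2 in pattern. Groups came from the labels. No label says whether replicate numbers pair libraries, and the main fit used no pairing. Of 9 same-numbered pairs, correlations of deviations from the group means ran from -0.21 to 0.56 and 2 were over 0.1. With 3 libraries per group these cannot settle whether libraries were paired.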

Additional observations from a re-analysis of the deposited data

How the results depend on the processing

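The call of AHNAK2 in TGF-β against control held in all 12 other settings and in all 9 fits without 1 library. The log2 difference of ANXA2 between TGF-β + uridine and control was near 0, and its sign turned to -7.8e-05 with RLE normalization. It ran from -0.068 to 0.076 over the fits without 1 library, negative without control replicate 1 and without TGF-β + uridine replicate 1 or 2. That of AHNAK between TGF-β and control ran from -0.50 to 0.10 and turned to 0.10 without control replicate 3. Of the listed genes called with TGF-β, ANXA5 was lost without control replicate 2 or 3, any TGF-β replicate or TGF-β + uridine replicate 1, PLAT without control replicate 2 or TGF-β replicate 3, and PLAUR without control replicate 2 or any TGF-β replicate, with adjusted p-values up to 0.169, 0.0610 and 0.0673. In TGF-β + uridine against control, PLAT was lost without any 1 of 7 libraries, ANXA8 and S100A2 without control replicate 2, ANXA8 also without TGF-β + uridine replicate 2, and PLAUR without control replicate 2.

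The number of genes called depended on the fit, and the cause was not tested. For TGF-β against control, beside 453, it was 719 with DESeq2, 229 with only the 2 groups compared, 2715 with the GC slope covariate and 803, 793 and 796 with limma on log2(FPKM + 1), log2(FPKM + 0.1) and all listed genes. For TGF-β + uridine against control, beside 714, the same settings gave 1103, 222, 4162, 1421, 1402 and 1364. For TGF-β + uridine against TGF-β, beside 6, they gave 117, 317, 2554, 385, 378 and 295, and upper-quartile normalization gave 10. Leaving out 1 library gave 218 to 1085, 304 to 2413 and 0 to 271 calls in the order above, the highest each time without control replicate 1. In 7 of these 9 fits 0 genes were called in the last comparison, with 719 to 1077 at an unadjusted p under 0.05.

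Replicate numbers were shared between groups, and none of the 9 libraries correlated best with its own number in both other groups, which does not settle whether they were paired. With the replicate number as a block, edgeR called 314, 437 and 0 genes (1001 at an unadjusted p under 0.05 in the last), and block and GC slope together gave 2340, 3756 and 2072. PLAU in TGF-β + uridine against TGF-β was not called under the block (adjusted p = 0.187), nor were ANXA5 with TGF-β (0.0730) and PLAT with TGF-β + uridine against control (0.0863). The block changed no call of the 4 members.

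Depth does not limit the members, since AHNAK had at least 6618 reads in every library. The SE of AHNAK with TGF-β was 0.29 and, with the GC slope covariate on the same libraries, 0.066.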
